A study of Mus musculus with 25 samples.

Results

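The HIVEP genes Hivep1, Hivep2 and Hivep3 encode large zinc finger transcription factors that bind the kappa-B motif, the DNA element read by NF-kB. The 3 genes are all the members of the family that were looked up, out of 23235 gene symbols, and each stood on 1 row in every one of the 25 libraries. They were chosen by family name and with their measured FPKM in these libraries already known: the levels by group, the knockout differences and the responses to stimulation. All of these values are therefore given as descriptions without a p-value. Whether a member passed the threshold used for all genes, an adjusted p under 0.05, is given as part of that description. It is not independent support for a difference. FPKM counts sequenced fragments relative to the length of the transcript and to the size of the library, so levels of different genes can be set side by side per length.

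RNA was sequenced from T cells of spleen and lymph node of C57BL/6 mice. Treg are regulatory T cells, which restrain immune responses and need the transcription factor Foxp3. Tconv are the conventional T cells they are set against. The stimulated groups were DKO Treg (2 libraries), c-RelKO Treg (1), p65KO Treg (1), WT Treg (2) and WT Tconv (2), exposed for 3 h to CD3 and CD28 antibodies at 2 μg/ml with IL-2. The groups without stimulation, called resting here, were DKO Treg (2 libraries), c-RelKO Treg (2), p65KO Treg (3), WT Treg (4) and WT Tconv (2). Rela encodes the NF-kB subunit p65, Rel encodes the subunit c-Rel, and DKO stands for the loss of both. A separate set of 4 stimulated libraries, 1 per group, belongs to an experiment with TAT-Cre, a recombinase that enters cells. It holds Treg labelled NFkB del, Treg labelled FoxP3 del, a WT Treg control and a WT Tconv control. Both controls are described as no-deletion controls for the TAT-Cre treated group. Alleles, the driver of the deletion in the KO mice, age and the number of animals per library are not given in the labels. Values from tissue-sorted cells in bulk cannot tell fewer cells of a type from less RNA per cell.

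T cell receptor and CD28 signals free NF-kB dimers from their inhibitors, after which they enter the nucleus and bind kappa-B motifs in the genes of cytokines, survival factors and their own inhibitors. HIVEP proteins recognise similar DNA through zinc fingers but are not NF-kB subunits. In mouse, Hivep2 (also called Schnurri-2) was described as restraining NF-kB in T helper cells, and Hivep3 (Schnurri-3 or KRC) as a partner of TRAF2 and of the AP-1 subunit c-Jun at the Il2 gene in T cells. In mouse bone, Hivep3 acts with the ubiquitin ligase WWP1 on Runx2, and in mouse fat precursors Hivep2 acts with Smad1, Smad4 and C/EBP alpha on Pparg.

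In the files, which use build mm9, Hivep1 spanned chr13:42147389-42280395, Hivep2 chr10:13686184-13871184 and Hivep3 chr4:119487282-119808016. In the GENCODE annotation of build GRCm38 all 3 lie on the plus strand and share a layout in which a single large internal exon holds most of the coding sequence. That exon was exon 4 of 9 in Hivep1 (5939 bases, 73.6% of the 8064 coding bases), exon 5 of 10 in Hivep2 (5506 bases, 70.5% of 7290) and exon 4 of 9 in Hivep3 (5487 bases, 70.4% of 7044). The annotated transcripts were 8753, 9846 and 11838 bases long, and the proteins 2688, 2430 and 2348 residues. Each protein held 4 matches to the zinc finger pattern with 2 cysteines and 2 histidines. These fell into a pair near the start and a pair near the end, separated by 1618 residues in Hivep1, 1545 in Hivep2 and 1486 in Hivep3. The coding sequence of the first pair, which spans residues 409 to 457 of Hivep1, 191 to 239 of Hivep2 and 187 to 235 of Hivep3, is shown because it is the part that defines the family, with the cysteine and histidine codons in capitals.
Hivep1: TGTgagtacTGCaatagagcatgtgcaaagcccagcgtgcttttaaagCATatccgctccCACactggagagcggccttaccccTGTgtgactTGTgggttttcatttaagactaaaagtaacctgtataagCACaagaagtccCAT
Hivep2: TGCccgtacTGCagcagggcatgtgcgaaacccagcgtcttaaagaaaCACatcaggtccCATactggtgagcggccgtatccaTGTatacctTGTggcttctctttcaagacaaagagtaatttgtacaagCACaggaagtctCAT
Hivep3: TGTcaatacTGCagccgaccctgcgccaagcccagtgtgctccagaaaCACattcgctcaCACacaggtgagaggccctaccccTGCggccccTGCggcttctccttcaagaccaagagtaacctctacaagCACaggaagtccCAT
Over these 49 residues, Hivep1 and Hivep2 were identical at 43, Hivep1 and Hivep3 at 42, and Hivep2 and Hivep3 at 45. The second pair was more alike, with 46 to 49 of 51 residues identical between members. The bases differed more than the residues: 110 of 147 were identical in the first pair for each of the 3 comparisons.

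The promoters are shown because the study removed factors that bind kappa-B motifs. They are RefSeq windows of build GRCm38.p6, 250 bases before to 50 after the start, all on the plus strand: chr13:42051771-42052070 for Hivep1, chr10:13966129-13966428 for Hivep2 and chr4:119814428-119814727 for Hivep3. Capitals mark matches, on either strand, to a loose kappa-B motif of 3 G, any 5 bases and 2 C, written GGGNNNNNCC.
Hivep1: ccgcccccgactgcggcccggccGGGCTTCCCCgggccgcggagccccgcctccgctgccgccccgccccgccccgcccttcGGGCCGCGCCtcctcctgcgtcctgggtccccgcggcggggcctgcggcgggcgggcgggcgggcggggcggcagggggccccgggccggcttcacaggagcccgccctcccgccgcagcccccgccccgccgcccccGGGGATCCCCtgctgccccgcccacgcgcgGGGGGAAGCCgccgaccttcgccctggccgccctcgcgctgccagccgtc
Hivep2: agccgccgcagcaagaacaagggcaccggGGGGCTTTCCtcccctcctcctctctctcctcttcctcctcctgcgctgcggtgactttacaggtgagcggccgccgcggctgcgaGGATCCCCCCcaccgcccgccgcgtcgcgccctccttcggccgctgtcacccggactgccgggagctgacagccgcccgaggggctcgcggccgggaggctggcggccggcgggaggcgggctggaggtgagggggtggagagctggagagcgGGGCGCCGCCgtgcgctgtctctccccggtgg
Hivep3: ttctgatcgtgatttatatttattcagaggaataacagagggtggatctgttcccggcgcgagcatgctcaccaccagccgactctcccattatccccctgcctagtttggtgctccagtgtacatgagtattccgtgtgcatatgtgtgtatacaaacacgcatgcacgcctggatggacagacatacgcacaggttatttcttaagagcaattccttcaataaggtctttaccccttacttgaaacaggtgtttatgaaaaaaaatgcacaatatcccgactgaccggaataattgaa
Hivep1 had 4 matches and Hivep2 had 3. Among them, GGGGATCCCC at 30 bases before the Hivep1 start and GGGGCTTTCC at 221 bases before the Hivep2 start also met the stricter kappa-B consensus. The Hivep3 window held no match. The loose form occurred in 50.8% of all 32841 promoter windows and the consensus, which lies within the loose form, in 4.51%. The windows also differed in base composition, with 87% G and C in Hivep1, 75.3% in Hivep2 and 44.3% in Hivep3, against a median of 52.7% over all windows. The start used for the Hivep3 window lies 80919 bases inside the RefSeq gene. That of Hivep2 lies 4770 bases inside and that of Hivep1 122. The Hivep3 and Hivep2 windows therefore cover only 1 of the possible starts of each gene. A match in these letters is not a measured binding site.

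Libraries were first compared with their labels. Implied depth was 15.4 to 52.8 M fragments. Library numbers form runs (run 1 to run 4 outside the TAT-Cre set, and run 5 for that set), and libraries of the same run deviated together, so values from the same run are given beside the pooled ones. Rel was 1.76 to 2.23 FPKM in the c-RelKO and DKO libraries, against 27.5 to 298 in WT Treg, resting or stimulated. The 27.5 came from WT Treg replicate 1, and the other WT Treg libraries had 199.5 to 298. The p65KO Treg library of that run, run 1, had 24.6 FPKM of Rel, and the labels do not explain the low values. Rela was 56.3 to 107 FPKM in the p65KO and DKO libraries, against 64.9 to 130 in WT Treg. These ranges overlapped, but each of the 8 p65KO and DKO libraries was below the WT Treg library of its run and state, at 0.454 to 0.894 of its value. Foxp3 was 6.34 to 21.2 FPKM in the DKO Treg libraries, against 129 to 351 in WT Treg and 0.542 to 0.927 in WT Tconv, so the defining marker of Treg was low in DKO cells labelled as Treg. The T cell genes Cd3e and Cd4 were at 108 FPKM or more in all 25 libraries.

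The library labelled p65KO Treg replicate 3, without stimulation, and the only one labelled as stimulated p65KO Treg go against their labels. Egr1, an immediate target of T cell receptor signals, was 29.5 FPKM in the library labelled stimulated and 178 in the library labelled resting. The resting library also had 78.6 FPKM of the myeloid gene Lyz2 and 336 of S100a8. c-RelKO Treg replicate 2 had 13320 FPKM of the haemoglobin gene Hba-a1, 741 of S100a8 and 78.0 of the B cell gene Cd79a. Summed over the marker lists, B cell markers were 3.6 to 237 FPKM, myeloid markers 12.5 to 1690 and erythroid markers 6.9 to 18170 in the c-RelKO libraries, against 4.9 to 67.9, 5.0 to 105 and 3.2 to 619 in WT Treg, resting or stimulated. No B cell, myeloid or erythroid marker was at 0 in more than 10 of the 25 libraries. Values without these libraries stand beside the p65KO and c-RelKO results.

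By mean FPKM Hivep2 was the most abundant member in each of the 10 groups outside the TAT-Cre set, and Hivep3 was the one that varied most. Across those groups' 21 libraries, Hivep1 ranged over 9.18 to 41.0 FPKM (4.47-fold), Hivep2 over 22.7 to 69.6 (3.07-fold) and Hivep3 over 0.415 to 66.8 (161-fold). For Hivep1, c-RelKO Treg stood at the top with a mean of 39.3 FPKM, then came stimulated c-RelKO Treg (38.9), stimulated WT Treg (32.1), WT Tconv (29.1), WT Treg (23.9), stimulated WT Tconv (22.6), p65KO Treg (16.3), stimulated DKO Treg (14.6), the library labelled stimulated p65KO (11.99) and DKO Treg (11.4). The libraries of neighbouring groups in this order overlapped, except between stimulated c-RelKO and stimulated WT Treg, between stimulated WT Tconv and p65KO Treg, and between stimulated DKO Treg and the library labelled stimulated p65KO. The lowest 4 groups were all labelled p65KO or DKO. Here and below, overlap is a description only, because groups of so few libraries can fail to overlap without a real difference. The share of all genes whose groups do so was not counted.

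For Hivep2 the order of means was stimulated WT Tconv (67.3 FPKM), stimulated c-RelKO Treg (54.98), stimulated WT Treg (49.6), c-RelKO Treg (44.9), WT Treg (42.1), stimulated DKO Treg (41.9), WT Tconv (41.3), p65KO Treg (32.5), DKO Treg (32.1) and the library labelled stimulated p65KO (22.7). From stimulated WT Treg to WT Tconv all neighbours overlapped, as did p65KO and DKO Treg. Stimulated WT Tconv, stimulated c-RelKO Treg and the library labelled stimulated p65KO did not overlap their neighbours. For Hivep3 the order was stimulated WT Tconv (52.3 FPKM), stimulated DKO Treg (22.5), stimulated c-RelKO Treg (9.99), p65KO Treg (8.86), WT Treg (5.44), stimulated WT Treg (4.89), c-RelKO Treg (3.64), WT Tconv (0.678), DKO Treg (0.553) and the library labelled stimulated p65KO (0.415). From stimulated c-RelKO Treg down to c-RelKO Treg, neighbours overlapped. The first and second groups stood clear, and the last 3 lay below 1 FPKM, of which WT Tconv and DKO Treg overlapped.

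**Figure D1:**
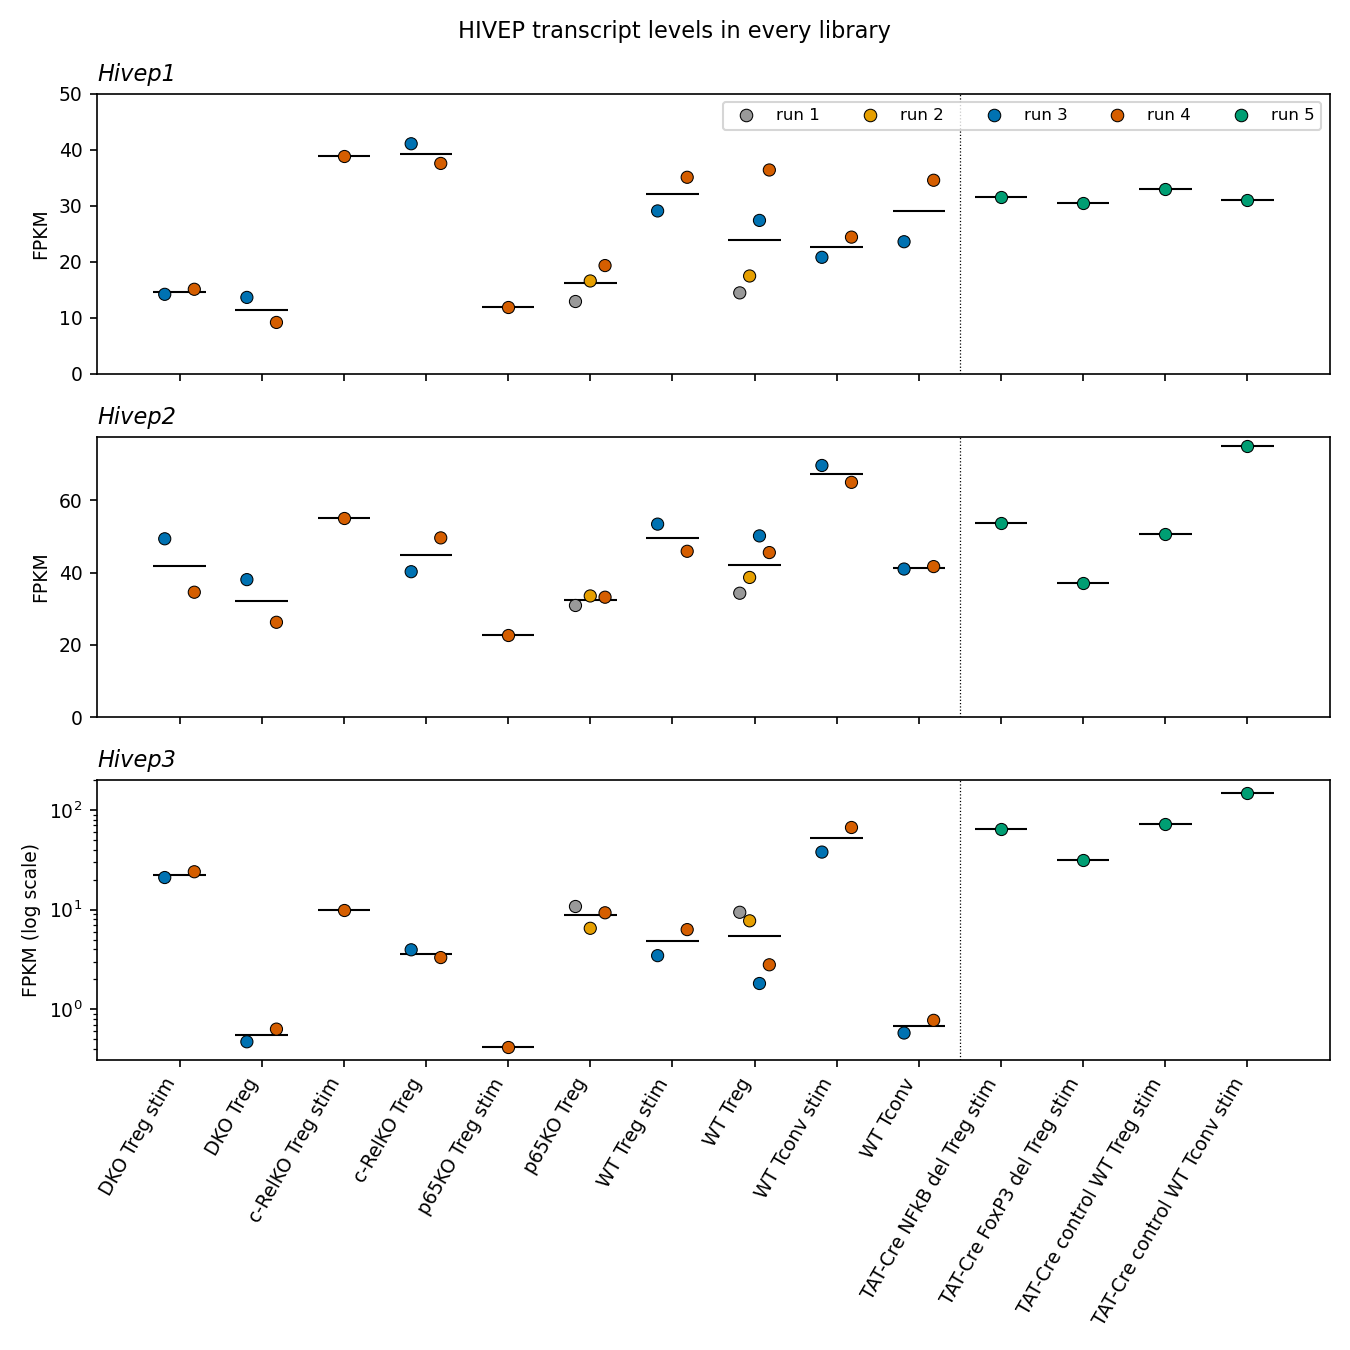
FPKM of Hivep1, Hivep2 and Hivep3 (vertical axes, the one of Hivep3 logarithmic) in each library by group, coloured by run of library numbers, with a line at the group mean; the dotted line sets off the TAT-Cre set. Hivep3 is at 21.03 and 24.03 FPKM in stimulated DKO Treg and at 0.473 and 0.634 in resting DKO Treg, while Hivep1 is at 9.18 to 15.1 in all 4 DKO libraries.

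Hivep3 was far higher with stimulation in WT Tconv and in DKO Treg. Hivep3 had 37.9 and 66.8 FPKM in stimulated WT Tconv, against 0.579 and 0.776 in resting WT Tconv. The groups did not overlap, and the fold within a run was 65.4 in run 3 and 86.1 in run 4. The fitted log2 difference was 4.94 ± 0.51 (SE, n = 2 and 2). Of the 11532 genes tested, 11.9% were called in stimulated against resting WT Tconv at an adjusted p under 0.05, and 1 of the 3 HIVEP genes, Hivep3, was among them. Hivep3 had 21.03 and 24.03 FPKM in stimulated DKO Treg, against 0.473 and 0.634 in resting DKO Treg. The folds were 44.5 and 37.9, and the fitted log2 difference was 3.92 ± 0.51 (n = 2 and 2). In that comparison 9.99% of genes were called, and Hivep3 was again the only called member. The lowest of these values, 0.473 FPKM, rested on 81 implied fragments, with Cufflinks bounds of 0.368 and 0.578.

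WT Treg showed a much smaller difference. Hivep3 had 3.46 and 6.31 FPKM in stimulated WT Treg, against 9.42, 7.74, 1.82 and 2.80 in the 4 resting WT Treg libraries. The groups overlapped, and the resting libraries of runs 1 and 2 lay above both stimulated ones. Within a run the stimulated library was higher, 1.90-fold in run 3 and 2.25-fold in run 4. The fitted log2 difference was 0.03 ± 0.44 over all libraries (n = 2 and 4) and 0.51 with run as a block. No gene was called in this comparison with limma (0%, with 311 genes at an unadjusted p under 0.05), so 0 of 3 members were. c-RelKO Treg, with 1 stimulated library, had 9.99 FPKM, against 3.31 in the resting library of the same run, a 3.02-fold difference with no replicate check. The library labelled stimulated p65KO had 0.415 FPKM (149 implied fragments), against 9.31 in the library labelled resting of the same run. Since Egr1 ran the same way in this pair, no direction of response is drawn from it.

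Set side by side, the log2 response of Hivep3 in DKO Treg exceeded that in WT Treg by 3.89 ± 0.67, and the response in WT Treg was below that in WT Tconv by -4.91 ± 0.67. The response in DKO Treg minus that in WT Tconv was -1.02 ± 0.72. The fitted WT Treg response includes resting libraries of runs 1 and 2, which have no stimulated partner, and the fit leaves out run. Within runs 3 and 4 the log2 responses were 3.90 and 3.94 in DKO Treg, 0.66 and 0.94 in WT Treg, and 4.62 and 5.25 in WT Tconv. The gaps between WT Treg and the other 2 groups were therefore smaller within runs. The immediate genes of T cell receptor signalling moved in the same groups. Of 14 early response genes fixed as a list, 7 were higher and 0 lower in stimulated DKO Treg (median log2 difference 2.98, against -0.19 over all genes). In stimulated WT Tconv 6 were higher and 0 lower (median 2.60, against -0.09), and in stimulated WT Treg 0 passed (median 1.29, against -0.09). Resting WT Treg of runs 3 and 4 lay near stimulated WT Treg for this list. The mean log2(FPKM + 1) was 4.63, 6.88, 7.51 and 7.19 in resting WT Treg of runs 1 to 4, against 7.88 and 7.68 stimulated. Resting WT Tconv had 5.65 and 5.46, and resting DKO Treg 5.43 and 4.83. Against resting WT Treg, 1 gene was higher and 6 lower in resting DKO Treg (50%, against 33% of all genes). Within runs 3 and 4, Egr1 was 3.1 and 4.02-fold higher in stimulated WT Treg. Egr3 had a mean of 144 FPKM in stimulated DKO Treg and 2.16 in resting DKO Treg (5.52 ± 0.47, limma adjusted p = 9.2e-06). In WT Tconv Egr1 averaged 644 and 16.8 FPKM in stimulated and resting cells (5.17 ± 0.49, adjusted p = 4.6e-05).

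Hivep2 differed less with stimulation. It had 69.6 and 64.96 FPKM in stimulated WT Tconv, against 41.0 and 41.7 in resting WT Tconv. The groups did not overlap, with folds of 1.70 and 1.56 within runs and a log2 difference of 0.69 ± 0.21. Hivep2 was not called there, but it was with run or replicate number as a block, in a fit of the WT Tconv libraries alone and without WT Treg replicate 1, p65KO Treg replicate 1 and c-RelKO Treg replicate 2, with the same difference of 0.69. In DKO Treg it had 49.3 and 34.6 FPKM with stimulation, against 38.0 and 26.2 without. The groups overlapped across runs, but within a run the stimulated library was 1.297 and 1.32-fold higher. In WT Treg the values were 53.4 and 45.9 FPKM with stimulation, against 34.3, 38.6, 50.1 and 45.5 without. Within runs 3 and 4 these differed by 1.06 and 1.01-fold. The single stimulated c-RelKO library had 54.98 FPKM, against 49.6 at rest in the same run.

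Hivep1 did not follow Hivep3. In WT Tconv it had 20.8 and 24.4 FPKM with stimulation, against 23.6 and 34.5 without. The stimulated library was the lower one in each run, the groups overlapped, and the log2 difference was -0.33 ± 0.35. In DKO Treg it had 14.2 and 15.1 FPKM with stimulation, against 13.6 and 9.18 without. These groups did not overlap, but only narrowly (14.2 against 13.6). The folds were 1.04 and 1.64, and the log2 difference of 0.36 ± 0.35 was about the size of its standard error. In WT Treg the stimulated values of 29.1 and 35.1 FPKM lay within the resting range of 14.5 to 36.4, and the folds within runs were 1.06 and 0.964. In c-RelKO Treg it had 38.9 FPKM with stimulation, against 37.5 without.

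Because all genes of DKO Treg had a median log2 difference of -0.19 with stimulation, the members were also read on values scaled by size factors. There the differences were 0.55 for Hivep1, 0.57 for Hivep2 and 4.05 for Hivep3. On that scale the called genes of this comparison split into 614 higher and 397 lower, where the unscaled fit had 445 higher and 707 lower.

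**Figure D2:**
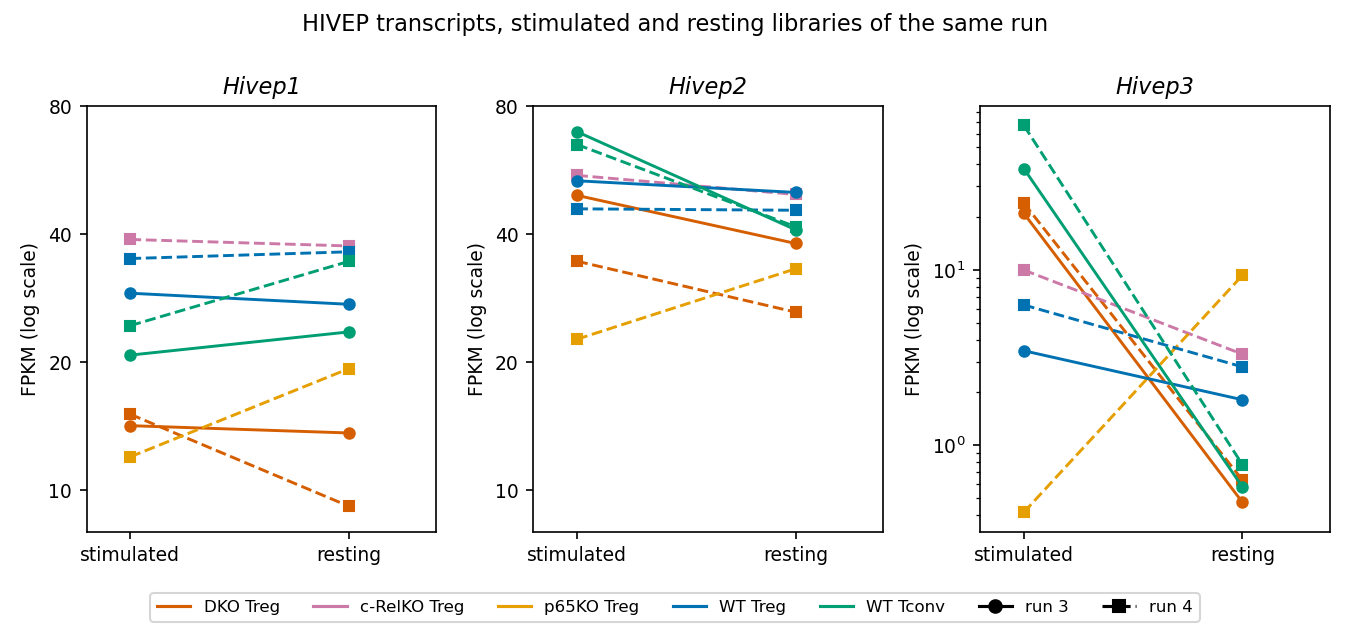
FPKM (logarithmic vertical axes) of the 3 HIVEP genes in stimulated and resting libraries, where each line joins the libraries of a group from the same run. The Hivep3 lines of WT Tconv and DKO Treg are the steepest, at 37.9 to 86.1-fold, those of WT Treg span 1.90 to 2.25-fold, and the p65KO line runs the other way, as Egr1 does in that pair.

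Resting DKO Treg had less Hivep1 and less Hivep3 than resting WT Treg. Hivep1 had 13.6 and 9.18 FPKM in DKO Treg, against 14.5, 17.5, 27.4 and 36.4 in WT Treg. Every DKO library lay below every WT library, and the DKO value was 0.498 of the WT value in run 3 and 0.252 in run 4. The log2 difference was -0.94 ± 0.30 (n = 2 and 4). Hivep3 had 0.473 and 0.634 FPKM in DKO Treg, against 9.42, 7.74, 1.82 and 2.80 in WT Treg. The groups did not overlap, the DKO value was 0.260 and 0.226 of the WT value of its run, and the log2 difference was -1.85 ± 0.44. Hivep2 had 38.0 and 26.2 FPKM in DKO Treg, against 34.3, 38.6, 50.1 and 45.5 in WT Treg. These overlapped, although the DKO library was the lower one in each run, at 0.759 and 0.576 of the WT value. In this comparison 33% of all genes were called, and 2 of the 3 members, Hivep1 and Hivep3, were among them. The WT libraries of runs 1 and 2 have no DKO partner. With run as a block the differences were -1.29 for Hivep1 and -1.37 for Hivep3. Hivep2 was called too under that block (-0.53 ± 0.16), so all 3 members were. Hivep1 was no longer called without WT Treg replicate 3 (-0.85) or 4 (-0.72) or DKO Treg replicate 2 (-0.68), nor with replicate number as a block (-0.53). Hivep3 was no longer called without DKO Treg replicate 1 (-1.77). Neither was called in a fit of the DKO and WT Treg libraries alone (-0.94 ± 0.38 for Hivep1 and -1.85 for Hivep3).

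In c-RelKO Treg no member was below WT Treg in both runs. Hivep1 had 41.0 and 37.5 FPKM in c-RelKO Treg, against 14.5, 17.5, 27.4 and 36.4 in WT Treg. The c-RelKO libraries lay above all WT libraries, by 1.5-fold in run 3 and 1.03-fold in run 4, with a log2 difference of 0.78 ± 0.30 (n = 2 and 4). Hivep2 had 40.2 and 49.6 FPKM in c-RelKO Treg, within the WT range of 34.3 to 50.1. Hivep3 had 3.96 and 3.31 FPKM in c-RelKO Treg, also within the WT range of 1.82 to 9.42. Against WT Treg of the same run, Hivep3 was 2.18 and 1.18-fold higher. The pooled log2 difference was -0.27 ± 0.44, and with run as a block it was 0.20, so its sign depends on the WT libraries of runs 1 and 2. Here 10.6% of genes were called and 0 of the 3 members. Hivep1 was called without WT Treg replicate 4 (1.0 ± 0.26) and with replicate number as a block (1.19). All genes together had a median log2 difference of -0.13, and on size-factor values Hivep1, Hivep2 and Hivep3 had 0.97, 0.29 and -0.10. The called genes split into 391 higher and 694 lower on that scale, and into 187 higher and 1036 lower without it. Without c-RelKO Treg replicate 2 the differences were 0.84 for Hivep1, -0.05 for Hivep2, against 0.10 with it, and -0.17 for Hivep3.

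In p65KO Treg, Hivep1 had 12.9, 16.6 and 19.3 FPKM, against 14.5, 17.5, 27.4 and 36.4 in WT Treg. The groups overlapped, but each p65KO library lay below the WT library of its run, at 0.894, 0.949 and 0.531 of the WT value in runs 1, 2 and 4. Hivep2 had 30.9, 33.5 and 33.2 FPKM in p65KO Treg, below all WT Treg values of 34.3 to 50.1, at 0.901, 0.867 and 0.729 of the WT value. The log2 differences were -0.46 ± 0.26 for Hivep1 and -0.35 ± 0.16 for Hivep2 (n = 3 and 4). Hivep3 had 10.8, 6.51 and 9.31 FPKM in p65KO Treg, against 9.42, 7.74, 1.82 and 2.80 in WT Treg. Within runs 1 and 2 the pairs were close, at 1.14 and 0.841-fold, and 3.33-fold in run 4, the run of the library that goes against its label. The log2 difference was 0.80 ± 0.39, while the pairs of runs 1 and 2 had a mean of -0.02. In this comparison 0.0434% of genes were called (5 genes, with 1130 at an unadjusted p under 0.05) and 0 of the 3 members. Without the library labelled p65KO Treg replicate 3 the differences were -0.58 for Hivep1, -0.36 for Hivep2 and 0.75 for Hivep3.

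The HIVEP transcripts are long, and markers of RNA quality moved with 2 of these genotypes. Of 12 long transcripts measured, 7 were lower and 0 higher in DKO Treg, with a median log2 difference of -0.83 against 0.06 over all genes. In c-RelKO Treg 7 were lower and 0 higher as well, with a median of -0.91 against -0.13. These calls were 58.3% of the list in each case, where 33% of all genes were called in DKO Treg and 10.6% in c-RelKO Treg. Huwe1, a very large ubiquitin ligase, averaged 40.9 FPKM in DKO Treg, 39.7 in c-RelKO Treg and 79.9 in WT Treg (-0.94 ± 0.16, adjusted p = 0.00058 in DKO, and -0.99 ± 0.16, adjusted p = 0.0017 in c-RelKO). Of 7 transcripts that stay in the nucleus, all 7 were lower in DKO Treg (median -2.23) and 6 in c-RelKO Treg (median -2.51). Malat1, the best known of them, averaged 22.3 FPKM in DKO Treg and 260 in WT Treg (adjusted p = 6.6e-06). In resting p65KO Treg 0 of 12 and 0 of 7 passed, where 0.0434% of all genes were called. The library labelled stimulated p65KO, which is in none of these comparisons, had the lowest sum of the 12 long transcripts, 226 FPKM. Stimulated WT Treg had 480.5 and 527, stimulated c-RelKO Treg 351 and the TAT-Cre set 355 to 411.5. The 8 nuclear transcripts listed, of which 7 were tested, gave another order. Their sum was 922 FPKM in the library labelled stimulated p65KO, and 1083 and 1426 in stimulated WT Treg. It was 437.5 in stimulated c-RelKO Treg and 355 to 466 in the TAT-Cre set, WT controls included. The part of RNA quality in the Hivep1 and Hivep3 levels was not tested.

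After stimulation, DKO Treg had less Hivep1 and more Hivep3 than WT Treg. Hivep1 had 14.2 and 15.1 FPKM in stimulated DKO Treg, against 29.1 and 35.1 in stimulated WT Treg. The groups did not overlap, the DKO value was 0.488 and 0.430 of the WT value, and the log2 difference was -1.07 ± 0.35 (n = 2 and 2). Hivep3 had 21.03 and 24.03 FPKM in stimulated DKO Treg, against 3.46 and 6.31 in stimulated WT Treg, which is 6.08 and 3.81-fold. The log2 difference was 2.04 ± 0.51, the opposite sign to that at rest. Hivep2 had 49.3 and 34.6 FPKM, against 53.4 and 45.9, and the groups overlapped (-0.26 ± 0.21). In this comparison 32.7% of genes were called, and 2 of the 3 members, Hivep1 and Hivep3, were among them. Hivep1 was no longer called on size-factor values (-1.05), nor when any of the 4 libraries was left out (-1.21 to -0.94). Hivep3 was no longer called without stimulated WT Treg replicate 1 (1.68) or stimulated DKO Treg replicate 2 (1.95). The RNA quality markers were low here too: 7 of the 12 long transcripts were lower in DKO Treg (median -1.01, against -0.00 over all genes), as were 7 of the 7 nuclear ones (median -2.46). Their part in the Hivep1 and Hivep3 differences was not tested. Stimulated c-RelKO Treg, with 1 library, had 38.9 FPKM of Hivep1, 54.98 of Hivep2 and 9.99 of Hivep3. These were 1.11, 1.20 and 1.58-fold the values of stimulated WT Treg in the same run.

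WT Treg and WT Tconv differed at rest in Hivep3. Hivep3 had 9.42, 7.74, 1.82 and 2.80 FPKM in WT Treg, against 0.579 and 0.776 in WT Tconv. The groups did not overlap, WT Treg was 3.14-fold higher in run 3 and 3.61-fold higher in run 4, and the log2 difference was 1.74 ± 0.44 (n = 4 and 2). With run as a block the difference was 1.26. After stimulation the order turned, with 3.46 and 6.31 FPKM in WT Treg, against 37.9 and 66.8 in WT Tconv. Hivep1 in WT Treg (14.5 to 36.4 FPKM) overlapped that in WT Tconv (23.6 and 34.5), and so did Hivep2 (34.3 to 50.1 against 41.0 and 41.7). In the resting comparison 12.6% of genes were called, and 1 of the 3 members, Hivep3, was among them. It was no longer called without WT Treg replicate 2 (1.52), WT Tconv replicate 1 (1.65) or WT Tconv replicate 2 (1.82), nor in a fit of these 6 libraries alone (1.74). Treg markers were higher in WT Treg in 7 of 7 cases, led by Ikzf2, Foxp3 and Il2ra. Foxp3 averaged 259 FPKM in WT Treg and 0.734 in WT Tconv (7.12 ± 0.43, adjusted p = 5.7e-07).

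**Figure D3:**
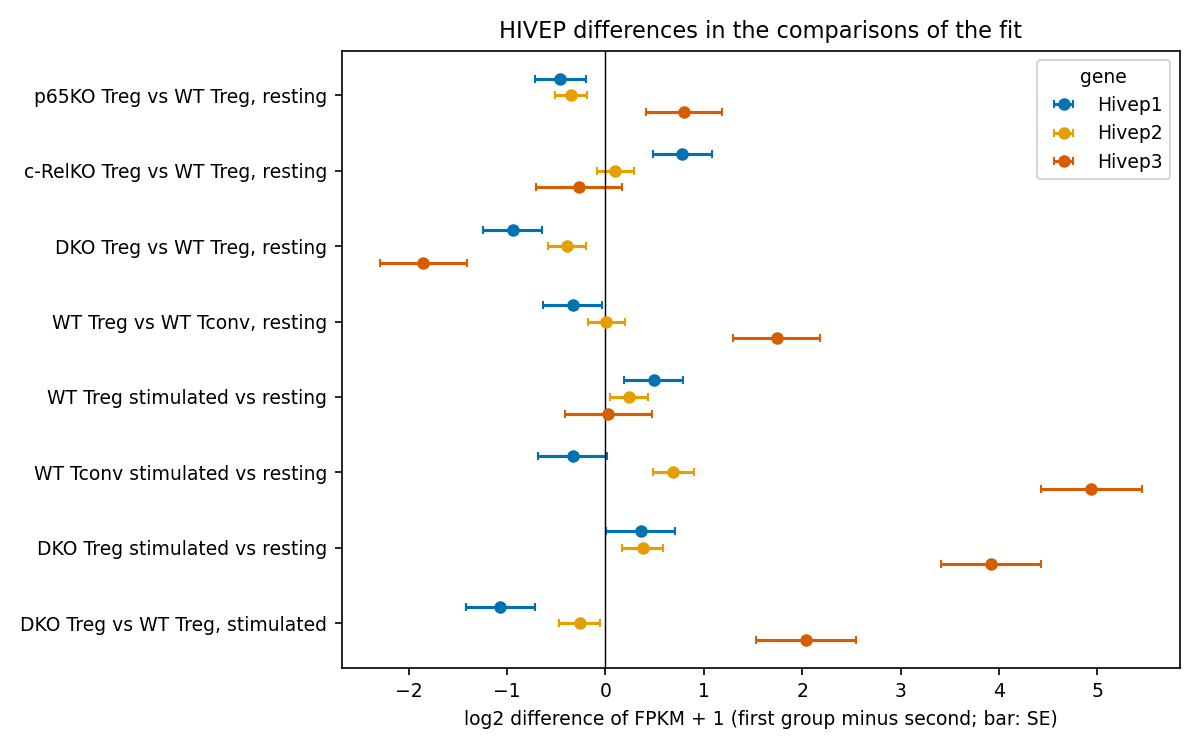
Log2 differences of FPKM + 1 (horizontal axis, first group minus second) for each HIVEP gene in the 8 comparisons, with bars for the standard error. Hivep3 lies at -1.85 for resting and 2.04 for stimulated DKO Treg against WT Treg, while Hivep1 lies at -0.94 and -1.07. With run as a block, which is not drawn, the resting values are -1.37 for Hivep3 and -1.29 for Hivep1.

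The TAT-Cre set had no replicates, and its values are those of single libraries. Hivep3 had 72.8 FPKM in the WT Treg control and 149.7 in the WT Tconv control, so WT Treg stood at 0.487 of WT Tconv. Both lay above every library outside this set, where stimulated WT Treg had at most 6.31 and stimulated WT Tconv at most 66.8. Over the 14 early response genes the mean log2(FPKM + 1) was 7.63 in the Treg control of this set, against 7.88 and 7.68 in stimulated WT Treg. The library labelled NFkB del had 63.8 FPKM of Hivep3, 0.876 of the Treg control, together with 31.6 of Hivep1 and 53.6 of Hivep2. The Treg control had 32.9 and 50.7 of these. In the library labelled NFkB del Rel stood at 38.7 FPKM and Rela at 124, against 171 and 125 in the WT Treg control. The library labelled FoxP3 del had 31.3 FPKM of Hivep3, 30.5 of Hivep1 and 37.2 of Hivep2. Its Foxp3 was 266 FPKM, against 86.7 in the Treg control, which goes against the label, so no direction is drawn from it. Hivep2 was 75.0 FPKM in the Tconv control, the highest of all 25 libraries.

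Reported partners and targets of the HIVEP proteins are a list of 15 genes of which 12 passed the filter on low values. In resting WT Treg 7 were higher and 2 lower than in WT Tconv, with a median log2 difference of 1.08 against 0.00 over all genes. In DKO Treg 3 were higher and 4 lower than in WT Treg at rest, and 5 were higher and 2 lower with stimulation. The list medians there were 0.12 and 0.29, against 0.06 and -0.00 over all genes. These calls were 75% of the list in WT Treg against WT Tconv, where 12.6% of all genes were called, and 58.3% in each DKO comparison, where 33% and 32.7% were. Il2, the cytokine gene at which mouse Hivep3 acts with c-Jun, averaged 2290 FPKM in stimulated DKO Treg and 2.04 in stimulated WT Treg (9.41 ± 0.73, adjusted p = 1.5e-06). Against resting DKO Treg, with a mean of 1.21 FPKM, the difference was 9.87 ± 0.73 (adjusted p = 1.9e-06). In WT Tconv, Il2 averaged 43.7 FPKM with stimulation and 2.28 without (3.73 ± 0.73, adjusted p = 0.0046). The highest Hivep3 was therefore not in the group with the highest Il2.

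Runx2, the bone transcription factor that mouse Hivep3 and WWP1 act on, averaged 40.8 FPKM in DKO Treg and 8.77 in WT Treg (2.11 ± 0.20, adjusted p = 1e-05). Pparg averaged 23.8 and 1.39 FPKM in these groups (3.32 ± 0.32, adjusted p = 9.5e-06). Jun, which encodes c-Jun, was lower in DKO Treg, with 15.1 FPKM against 103 in WT Treg (-2.60 ± 0.56, adjusted p = 0.003). After stimulation Pparg and Runx2 were again higher in DKO Treg, by 3.88 ± 0.36 (adjusted p = 7.4e-06) and 2.46 ± 0.23 (adjusted p = 8.2e-06). Smad4 fell with stimulation in DKO Treg, to 20.4 FPKM against 31.9 at rest (-0.63 ± 0.17, adjusted p = 0.031). Gata3 was among the genes higher in resting WT Treg than in WT Tconv, with 73.0 FPKM against 16.4 (2.05 ± 0.38, adjusted p = 0.0032). In c-RelKO and in p65KO Treg 0 of 12 passed.

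Genes of the NF-kB inhibitors and feedback list were lower in DKO Treg in 6 of 12 cases and higher in 0, with a median log2 difference of -1.30. Traf1, an adaptor that NF-kB induces, averaged 56.8 FPKM in DKO Treg and 168 in WT Treg (-1.52 ± 0.27, adjusted p = 0.00079). Birc3 (-1.13 ± 0.26, adjusted p = 0.0051) and Nfkbie (-1.47 ± 0.35, adjusted p = 0.0052) were lower as well. After stimulation 3 of 12 were lower in DKO than in WT Treg, which at 25% is below the 32.7% called over all genes; the 6 of 12 at rest stand against 33%. In c-RelKO and in p65KO Treg 0 of 12 passed, with medians of 0.38 and -0.54. Of the 5 NF-kB subunit genes only Rel passed, in c-RelKO and DKO Treg.

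The TGF-beta and BMP list, the pathway in which HIVEP relatives act in flies and in mouse fat, gave 3 higher and 2 lower of 13 tested genes in resting DKO Treg, a share of 38.5% that is near the 33% of all genes called. Tgfbr1, a TGF-beta receptor chain, averaged 20.1 FPKM in DKO Treg and 48.8 in WT Treg (-1.22 ± 0.20, adjusted p = 0.00043). The BMP receptor Bmpr1a was higher, at 5.01 against 1.54 FPKM (1.25 ± 0.18, adjusted p = 0.00016). In stimulated DKO Treg 3 were higher and 4 lower, 53.8% against 32.7% of all genes, with Smad7, an inhibitor of the pathway, at 8.64 FPKM against 54.6 in stimulated WT Treg (-2.60 ± 0.35, adjusted p = 0.00012). Of 10 factors of naive and quiescent T cells, 8 were lower in resting DKO Treg, led by Foxp1 with 15.8 FPKM against 50.5 (-1.61 ± 0.16, adjusted p = 1.4e-05). Of 8 markers of NK and CD8 T cells, 4 were higher in resting DKO Treg, among them Gzma with 41.9 FPKM against 1.66 (4.01 ± 0.61, adjusted p = 0.00025), and summed these 8 genes came to 47.5 and 86.1 FPKM in DKO Treg, against 9.4 to 28.97 in WT Treg. Their part in the HIVEP values was not tested.

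The pattern of each member over the 21 libraries was compared with that of 8678 genes, as a description. For Hivep3 the closest was Nfatc1 (Pearson r = 0.96, Spearman rho = 0.96), the transcription factor NFAT2 that T cell receptor signals activate. Slc25a32, a mitochondrial folate carrier (r = 0.93), Pdcd11, a ribosome biogenesis factor (0.92), Tmem185b (0.92) and D8Ertd82e (0.92) followed. Nfatc1 had 143 and 131 FPKM in stimulated DKO Treg, against 55.3 and 50.4 in resting DKO Treg. In WT Tconv it had 170 and 200 FPKM with stimulation, against 51.1 and 42.6 without, and in WT Treg 70.6 and 71.95, against 78.9, 80.5, 54.2 and 50.5. The resting WT Treg libraries of runs 1 and 2 were thus the high ones for Nfatc1 as for Hivep3. The libraries labelled stimulated and resting p65KO of run 4 had 37.7 and 76.8 FPKM of Nfatc1. In the TAT-Cre set, which the correlation did not use, Nfatc1 stood at 190 FPKM for NFkB del, 122 for FoxP3 del, 156 for the Treg control and 234 for the Tconv control.

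Hivep1 was most like Hs6st1, a heparan sulfate sulfotransferase (r = 0.90, rho = 0.92), Chd4, the helicase of the NuRD complex (0.87), Pdp2, a pyruvate dehydrogenase phosphatase (0.87), Mfhas1 (0.86) and Itpkc, an inositol trisphosphate kinase (0.86). Hivep2 was most like Eif2c2, which encodes Argonaute 2 (r = 0.90), the transcription factor Mef2a (0.89), the Hippo pathway kinase Lats1 (0.84), Arap2 (0.83) and the mitochondrial helicase Supv3l1 (0.83). Among the members themselves, Hivep1 and Hivep2 had r = 0.63 and rho = 0.67, Hivep2 and Hivep3 0.48 and 0.31, and Hivep1 and Hivep3 -0.01 and 0.02. The libraries share groups and runs, so these values describe patterns over 10 groups rather than 21 independent points.

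**Figure D4:**
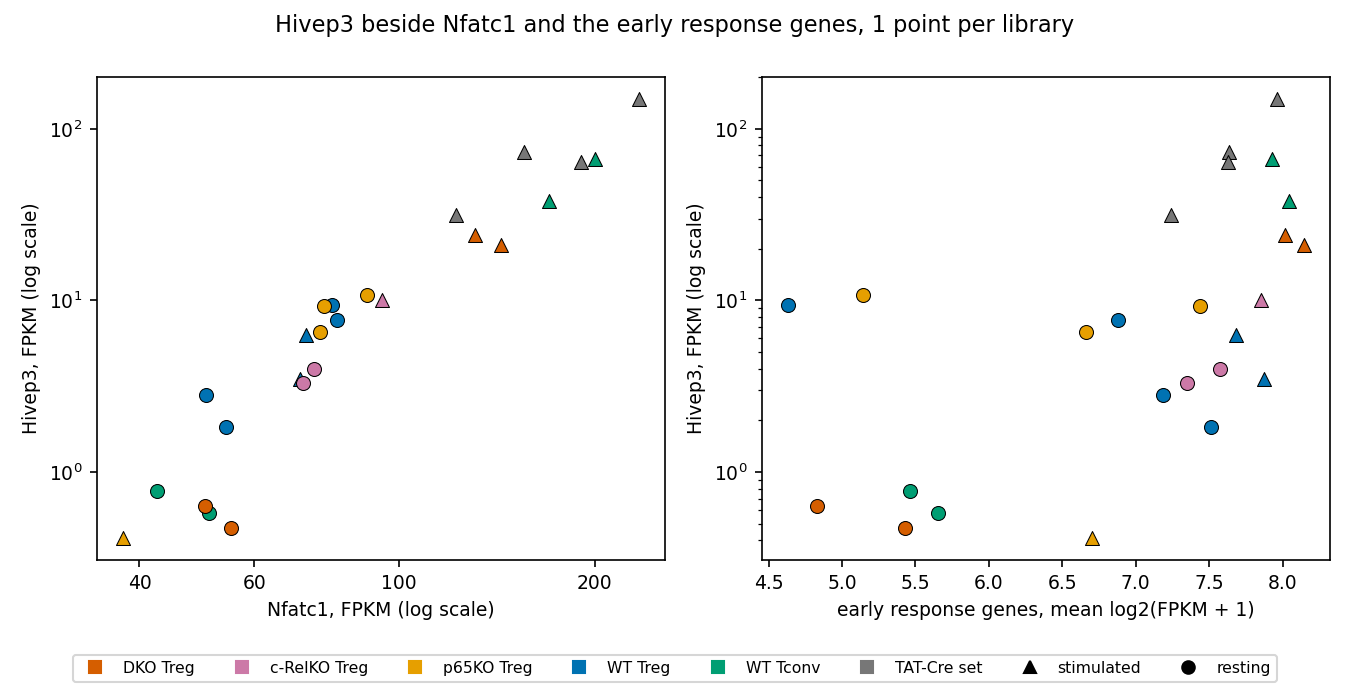
FPKM of Hivep3 (vertical axis, logarithmic) in each library against FPKM of Nfatc1 (left, logarithmic) and against the mean log2(FPKM + 1) of the 14 early response genes (right), with stimulated libraries as triangles and resting ones as circles. Hivep3 is highest in the libraries with the most Nfatc1, while among the early response genes the resting WT Treg library at 4.63 has 9.42 FPKM of Hivep3.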

How the data were processed

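Expression was measured by RNA-seq in 25 libraries of mouse T cells. The authors deposited gene-level FPKM values with lower and upper bounds, 1 table per library, and no read counts; the submitters' processing notes name bcl2fastq, TopHat and Cufflinks and build mm9. The sources used here do not give their versions, the gene annotation or the strand handling. RNA was extracted with RNeasy kits and libraries were made with a TruSeq RNA kit, per the labels' protocols. How Cufflinks divided reads of overlapping genes is not recorded. Of 23235 symbols, 250 with a status other than OK in some table were left out and entries of the same symbol were summed.

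The bounds imply a number of fragments per gene, which gave depths of 15.4 to 52.8 M fragments per library; of implied numbers under 15, 70.5% to 74.4% lay within 0.02 of a whole number, so these are estimates, and bounds cover counting error only. log2(FPKM + 1) was analysed with limma 3.58.1 in R 4.3.3, with a trend on mean expression, 1 mean for each of 10 groups over 21 libraries (11 residual degrees of freedom) and Benjamini-Hochberg adjustment over 11532 genes, those that reached 1 FPKM in 2 or more libraries. This scale understates changes of low genes. A gene is called at an adjusted p under 0.05. Groups of so few libraries can fail to overlap without a real difference. The share of all genes whose groups do so was not counted, so non-overlap is a description only. The fit was tried on simulated data with known changes, with means and spreads taken from these libraries and independent noise. The simulated data had no deviations shared by a run, so that check cannot speak to calls where libraries of a run deviate together. The labels do not say that replicates came from separate animals, so the p-values cover the spread among these libraries alone, which may be partly technical.

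The library numbers fall into runs of consecutive values, which the labels do not call batches. Deviations from group means correlated at 0.432 on average between libraries of the same run (51 pairs). Members, gene lists and alternatives were chosen with earlier results of these data known. Named are the members, Rela, Rel and Foxp3, up to 3 genes with the smallest p per list and comparison, and the 5 genes most like each member; Cd3e, Cd4, Cd79a, Lyz2, S100a8 and Hba-a1 were chosen after their values were seen. Motifs, zinc finger pattern matches and identities were read from RefSeq promoter windows and GENCODE vM21 transcripts with Python 3 code, never from mm9 coordinates.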

Additional observations from a re-analysis of the deposited data

Results flagged for a closer look

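Resting Hivep1 lay below WT Treg of the same run in p65KO Treg and above it in c-RelKO Treg, though some of these pairs were close. Against the WT library of the same run, p65KO Treg was lower in 3 of 3 pairs (mean log2 difference -0.37) and c-RelKO Treg higher in 2 of 2 (0.30), a gap of -0.67. The p65KO pairs were -0.15, -0.07 and -0.88, the last from replicate 3, which goes against its label, and without it the mean was -0.11. The c-RelKO pairs were 0.57 and 0.04, the second from replicate 2, the library with haemoglobin and myeloid RNA, so 1 pair is left without it. DKO Treg was lower in 2 of 2 pairs (-1.42), so c-RelKO minus DKO came to 1.72. Hivep3 gave the same contrast, higher in 2 of 2 c-RelKO pairs (0.82, and 0.18 with replicate 2, mean 0.50) and lower in 2 of 2 DKO pairs (-1.08), a gap of 1.58. For Hivep1, stimulated WT Tconv was below resting WT Tconv in 2 of 2 pairs (-0.33) and stimulated DKO Treg above resting DKO Treg in 2 of 2 (0.36), a gap of -0.68. These results were picked out because all pairs of a group lay on the same side and all pairs of the other on the opposite side. The differences were not tested, and the knockouts share their WT libraries. In the 4 WT Treg libraries no member had a single library far from the others, but that check cannot see a split by run. Hivep3 was 9.42 and 7.74 FPKM in WT Treg of runs 1 and 2, against 1.82 and 2.80 in runs 3 and 4. Hivep1 was 14.5 and 17.5 FPKM in runs 1 and 2, against 27.4 and 36.4 in runs 3 and 4.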

How the results depend on the processing

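The log2 differences of the members turned sign under no alternative in results that were called. Of the values under alternatives, 103 of Hivep1, 98 of Hivep2 and 103 of Hivep3 lay within 1 residual SD of the fit from the reported value, and 4, 9 and 4 lay farther off. With a pseudocount of 0.1, Hivep3 gave -2.80 for resting DKO against WT Treg, 2.55 for WT Treg against WT Tconv, 6.03 for stimulated WT Tconv and 5.12 for stimulated DKO Treg. Replicate numbers do not pair the libraries: same-numbered libraries of different groups correlated at 0.222 on average (57 pairs, lowest -0.499), and at -0.119 where they were of different runs. With the replicate number as a block, Hivep1 gave 1.19 for c-RelKO, -0.75 for WT Treg against WT Tconv and 0.90 for stimulated WT Treg, each called only under it or, for c-RelKO, also without WT Treg replicate 4, and -0.53 for resting DKO, where the call was lost; counts of called genes under this block were 3270 for c-RelKO, 3050 for WT Treg against WT Tconv, 3119 for stimulated WT Treg (0 without it), 2402 for stimulated WT Tconv and 2114 for stimulated DKO Treg.

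With run as a block the called genes were 1017 for p65KO (5 without it), 4803 for c-RelKO, 7062 for resting DKO, 5287 for WT Treg against WT Tconv, 4966 for stimulated WT Tconv, 4851 for stimulated DKO Treg, 7230 for DKO against WT Treg with stimulation and 0 for stimulated WT Treg. With only the libraries of the groups compared they were 0 for p65KO, 85 for c-RelKO, 1737 for resting DKO, 373 for WT Treg against WT Tconv and 3991 for stimulated WT Tconv. Leaving out 1 library gave 0 to 21 called genes for p65KO, 438 to 1255 for c-RelKO (449 without replicate 2), 2091 to 4635 for resting DKO (2131 without replicate 1), 355 to 2314 for WT Treg against WT Tconv, 398 to 607 for stimulated WT Tconv, 193 to 803 for stimulated DKO Treg (416 without resting replicate 1) and 1903 to 2765 for DKO against WT Treg with stimulation (2079 without stimulated DKO replicate 2). Without WT Treg replicate 1, p65KO Treg replicate 1 and c-RelKO Treg replicate 2 they were 0 for p65KO, 3060 for WT Treg against WT Tconv, 2420 for stimulated WT Tconv and 2302 for stimulated DKO Treg. Without p65KO Treg replicate 3, stimulated p65KO Treg and c-RelKO Treg replicate 2, a set chosen after seeing the data, they were 0 for p65KO and 452 for c-RelKO. For p65KO, a pseudocount of 0.1 and size factors gave 0 and no filter gave 3. The causes were not tested. A library left alone in its group is assumed to vary like the others.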
